A study of Homo sapiens with 6 samples.

Results

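The genes described here build the licence for DNA replication: the subunits of the MCM helicase (MCM2 to MCM7), the loading factors ORC1 and CDC6, the helicase cofactor CDC45 and the licensing inhibitor GMNN. They were chosen by name, as the probe sets whose platform gene symbol is 1 of 10 listed symbols. Of the 10 genes, 8 had a probe set with a single gene name, 1 each, among the 8746 probe sets of the array, and all 8 were among the 6559 bright enough to be tested. MCM4 and MCM7 had no probe set named for them, alone or with other genes, and have no values here. RNA came from A549, an established line of human lung adenocarcinoma cells. The 3 control cultures spent 1 hour in drug-free growth medium, and the 3 cisplatin cultures spent it in 50 µM cisplatin, a platinum compound that forms crosslinks in DNA. All cultures were then washed and left in fresh medium without drug for 10 hours. The series description states 3 independent experiments.

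Before a cell replicates its DNA, the origin recognition complex binds origins and, with CDC6 and CDT1, loads pairs of MCM rings onto the double helix in an inactive form. At the start of S phase, kinases turn each ring into the active helicase by adding CDC45 and the GINS complex, the assembly called CMG. Geminin, the product of GMNN, binds CDT1 and blocks new loading until the next cell cycle. Genes for these proteins are classical targets of the E2F transcription factors, whose activity is restrained by pocket proteins of the RB family.

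The MCM genes came forward because an earlier look at the same 6 arrays had shown them on one side of the control. The difference between cisplatin and control therefore chose the members, and the values below describe it without a test. The 4 measured MCM subunits were lower after cisplatin, with log2 folds from -0.33 to -0.27. The groups did not overlap for MCM3, MCM5 and MCM6. Those of MCM2 did, and its log2 fold was -0.09 without control 1. The loading factors, CDC45 and GMNN had log2 folds from 0.04 to 0.16, where the median of all tested probe sets was 0.04. Their 95% intervals all included 0, and CDC45 and CDC6 changed sign under some other settings of the fit. In RNA of whole cultures, fewer cells in the phase that transcribes a gene and less RNA per cell cannot be told apart.

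Median intensity was 67.2 on cisplatin 2 and 57.2 to 59.7 on the other arrays. The log2 medians used in the fit spread by 0.19, and 3 arrays a group limit the precision. On the first principal component control 1 and cisplatin 2 lay away from the other 4 arrays. CDKN1A, a cyclin-dependent kinase inhibitor induced by p53 and used here as a check of the treatment, went from 257 ± 21.4 to 1422 ± 48.5 (mean ± SD, n = 3 each; adjusted p = 4.74e-06 in limma). GAPDH had a log2 fold of -0.04. Of 10 epithelial and A549 markers, KRT18, AKR1B10, AKR1C1 and ALDH1A1 had mean intensities of 3819 or more, and EPCAM and CDH1 were dim at 33.0 and 37.3. The summed level of the 10 ran from 23270 to 27494 in control and from 23705 to 26744 after cisplatin. Markers of blood, endothelial and stromal cells had 7 of 8 genes measured and summed levels of 249.98 to 288 in control and 235 to 309.8 after cisplatin. COL3A1 was near 0 at a mean of 1.41 and PTPRC and VWF were at 11.95 and 14.2, while PECAM1 at 65.4 lay within the range of the array medians and COL1A1 at 98.7 above it. The part of other cell types in the results was not tested.

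The promoters of these genes were searched for letters that E2F proteins are known to bind. The search covered the words TTTCCCGC, TTTCGCGC, TTTGCCGC and TTTGGCGC on both strands of RefSeq promoters of GRCh38.p14, each from 250 bases before to 50 bases after a gene's start. Among all 35116 promoters 3.31% held such a word, and 3.99% of the genes in that table held one in at least 1 of their promoters. A promoter was at hand for 7 of the 8 measured genes, all but MCM5, and 5 of the 7 held a word: MCM2, MCM3, MCM6, CDC6 and GMNN. The stretches around the words are shown so that the genes that were lower and those that were not can be set side by side. Each is 30 bases long, 5′ to 3′ along the gene, with the E2F letters in capitals.
MCM2: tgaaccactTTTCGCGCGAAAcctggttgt
MCM3, upstream: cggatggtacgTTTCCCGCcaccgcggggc
MCM3, at the start: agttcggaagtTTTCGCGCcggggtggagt
MCM6, upstream: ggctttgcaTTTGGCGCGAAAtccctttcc
MCM6, nearer the start: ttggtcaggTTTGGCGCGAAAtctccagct
CDC6: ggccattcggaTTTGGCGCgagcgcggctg
GMNN: gctgggtcggtTTTGGCGCgctctcacttc

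These stretches lie at chr3:127598404-127598433 (MCM2, plus strand), chr6:52284898-52284927 and chr6:52284728-52284757 (MCM3, minus strand), chr2:135876575-135876604 and chr2:135876513-135876542 (MCM6, minus strand), chr17:40287875-40287904 (CDC6, plus strand) and chr6:24775322-24775351 (GMNN, plus strand). Counting from 1 at the start of the gene, with no base 0, the word of MCM2 spans bases 3 to 14 and that of CDC6 bases 8 to 15. The second word of MCM3 spans bases -4 to 4, and the word of GMNN bases -80 to -73. In MCM2 and in both MCM6 stretches the letters form a block of 12 bases, because a word on the plus strand and one on the minus strand overlap. MCM6 held such a block at bases -152 to -141 and again at bases -90 to -79. CDC45 and ORC1 held none of the 4 words, which says only that these letters are not in the windows searched.

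The MCM6 promoter is shown in full up to the start because it held 2 of the 12-base blocks. It covers chr2:135876444-135876693 on the minus strand of GRCh38.p14, with capitals for the E2F blocks and for CCAAT, the box bound by NF-Y, here in its reverse form ATTGG.
MCM6 upstream: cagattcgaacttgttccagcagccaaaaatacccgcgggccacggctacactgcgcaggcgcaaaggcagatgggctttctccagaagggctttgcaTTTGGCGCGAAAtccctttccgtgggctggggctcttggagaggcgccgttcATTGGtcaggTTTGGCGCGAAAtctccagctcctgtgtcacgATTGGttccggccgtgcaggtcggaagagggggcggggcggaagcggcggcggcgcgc
CCAAT on either strand occurred in 34.6% of all promoters. Counted in the same way, 10 of the 13 member promoters held it. Of the members with a promoter at hand, a set of 8 genes that also includes MCM7, 7 held it in at least 1 promoter, and MCM2 did not. The MCM6 promoter was also the 1 member promoter with TTTGAA or TTCGAA, the letters of the cell cycle homology region, found in 16.4% of all promoters. A match of letters is a description and not a measured binding site.

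MCM3, a subunit of the ring, had deposited intensities of 622, 658 and 639 in replicates 1 to 3 of the control. After cisplatin the replicates were at 514, 481 and 543. Every cisplatin array lay below every control array. The means were 639 ± 18.02 and 512 ± 31.1 (SD, n = 3), and the log2 fold was -0.31 (95% interval -0.53 to -0.10, unadjusted), a fold of 0.804.

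MCM5, which sits at the gate of the ring beside MCM2, had intensities of 619, 617 and 545 in control and 442, 489 and 478 after cisplatin. The groups did not overlap, and control 3 was the lowest control. The means were 594 ± 41.9 and 469.7 ± 24.3, and the log2 fold was -0.33 (95% interval -0.56 to -0.10).

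MCM6, a subunit of the stable MCM4, MCM6 and MCM7 core, was nearly constant in control cells, at 751, 767 and 763. After cisplatin it was at 608, 667 and 592, below all controls. The means were 760.0 ± 8.48 and 623 ± 39.4, and the log2 fold was -0.28 (95% interval -0.49 to -0.08). On the log2 scale the SD over the control arrays was 0.016 for MCM6, 0.040 for MCM3, 0.10 for MCM5 and 0.33 for MCM2. The median tested probe set, over bright and dim ones alike, had 0.17. Over the cisplatin arrays the SD was 0.088 for MCM6 and 0.086 for MCM3, where the median was 0.17.

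MCM2, the other side of the gate and a carrier of histones at the fork, was spread more widely. Its intensities were 639.7, 486 and 404 in control and 382, 455 and 410.0 after cisplatin. Control 3 lay below 2 of the cisplatin arrays, so the groups overlapped, and control 1 was far above the other controls. The means were 510.0 ± 119.7 and 416 ± 36.8, and the log2 fold was -0.27 (95% interval -0.63 to 0.10). Without control 1 the log2 fold of MCM2 was -0.09, without control 3 it was -0.42, and without control 1 and cisplatin 2 together it was -0.16.

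**Figure D1:**
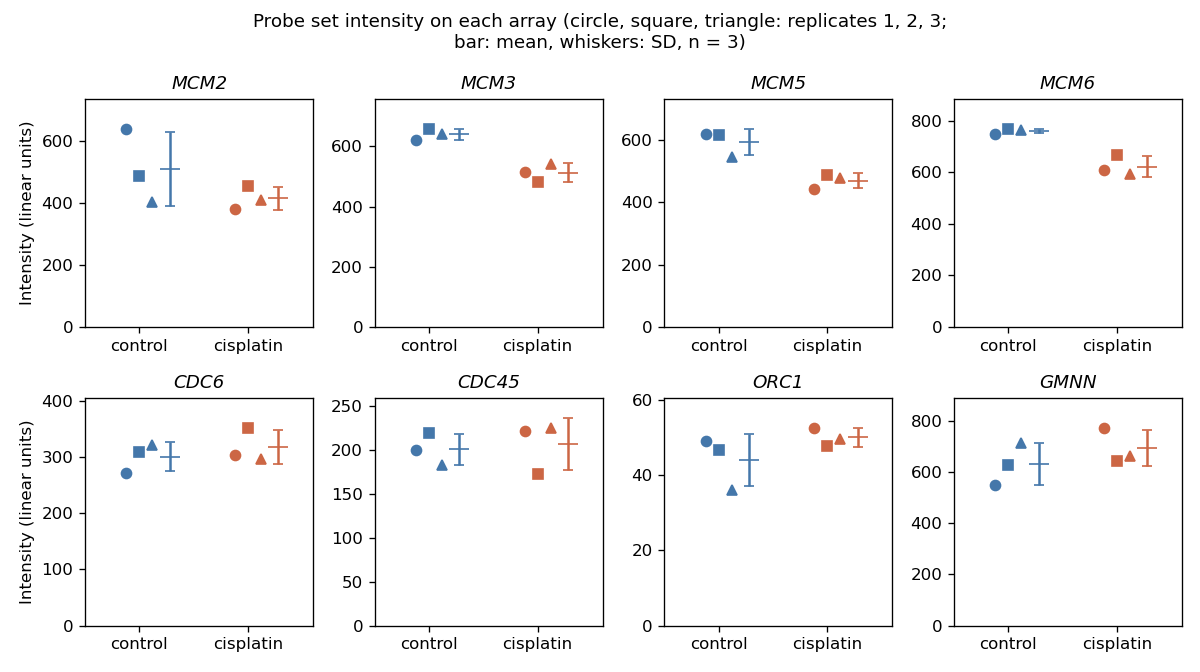
Deposited intensity (linear units, axis from 0) of the 8 genes on each of the 6 arrays, with circles, squares and triangles for replicates 1, 2 and 3 and the mean with its SD (n = 3) beside them. MCM3, MCM5 and MCM6 have all 3 cisplatin values below all 3 control values, MCM2 overlaps through control 3, and the groups of CDC6, CDC45, ORC1 and GMNN overlap.

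ORC1, the largest subunit of the origin recognition complex, had the dimmest probe set of the members, at the 43.6th percentile of mean log2 intensity over the array. Its intensities were 49.1, 46.8 and 36.1 in control and 52.7, 47.8 and 49.6 after cisplatin. The groups overlapped, and control 3 alone was low. The means were 44.0 ± 6.97 and 50.0 ± 2.45, and the log2 fold was 0.16 (95% interval -0.21 to 0.52), or 0.05 without control 3.

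CDC6, the ATPase that joins ORC to load the MCM ring, had intensities of 272, 310.2 and 322 in control and 305, 353 and 297 after cisplatin. The groups overlapped, with cisplatin 2 highest and control 1 lowest. The means were 301 ± 26.0 and 318 ± 30.4, and the log2 fold was 0.08 (95% interval -0.20 to 0.35). Without control 1 and cisplatin 2 together it was -0.07, without control 1 alone 0.0069 and without cisplatin 2 alone 0.0016.

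GMNN was at 548.7, 627 and 714 in control and at 774, 643 and 661 after cisplatin. The groups overlapped, and control 1 and cisplatin 1 held the lowest and the highest value. The means were 629.9 ± 82.7 and 693 ± 70.6, and the log2 fold was 0.14 (95% interval -0.14 to 0.42). It was 0.04 without control 1, 0.06 without cisplatin 1 and 0.23 without control 3.

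CDC45, the cofactor that joins the MCM ring when an origin fires, was at 199, 219 and 183 in control and at 222, 173 and 225 after cisplatin. Cisplatin 2 was the lowest of the 6 arrays and the other cisplatin arrays the highest. The means were 200.3 ± 17.99 and 206 ± 29.3, and the log2 fold was 0.04 (95% interval -0.29 to 0.36). It was 0.15 without cisplatin 2 and 0.10 without control 2, and it lay between -0.03 and -0.02 without control 3, without cisplatin 1 or without cisplatin 3.

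In limma with Benjamini-Hochberg adjustment over all tested probe sets, 0 of the 8 genes passed the threshold of 0.05, where 0.29% of all tested probe sets did. At an unadjusted p under 0.05 there were 3, all lower (MCM3, MCM5 and MCM6), where 1.63% of all tested probe sets were lower and 3.4% higher at that level. The same 3 genes had every cisplatin array below every control array, which held for 3.57% of tested probe sets, and 0 had every cisplatin array above, which held for 7.42%. Because this contrast chose the members, nothing is read from these counts.

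The median log2 fold was -0.12 over the 8 genes, -0.30 over the 4 MCM genes and 0.11 over the other 4, beside 0.04 over all tested probe sets. A log2 fold at or below that of MCM2 was found for 4.13% of all tested probe sets. The middle 50% of tested probe sets had log2 folds from -0.06 to 0.15, and CDC6, CDC45 and GMNN lay within it while ORC1 lay just above. The lower ends of the intervals were -0.14 for GMNN, -0.20 for CDC6, -0.21 for ORC1 and -0.29 for CDC45, and the upper ends allowed folds of up to 1.28 for CDC6 and CDC45, 1.33 for GMNN and 1.43 for ORC1. The difference between the MCM genes and the others was itself not tested, since it is made of the contrast between cisplatin and control that chose the members.

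**Figure D2:**
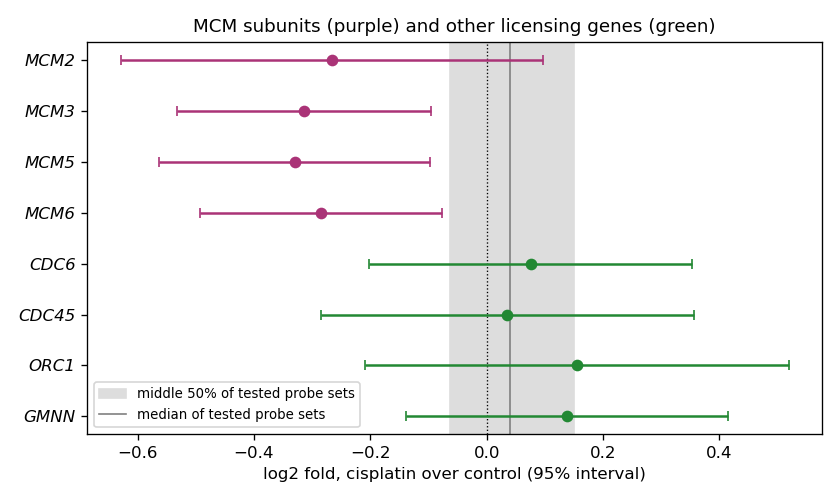
log2 fold of cisplatin over control for each gene with its unadjusted 95% interval from limma, with MCM subunits in purple and the other genes in green. The MCM genes lie from -0.33 to -0.27, the others from 0.04 to 0.16; the grey band is the middle 50% of all tested probe sets (-0.06 to 0.15) and the grey line their median of 0.04.

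How the genes moved from array to array was read from log2 values centred on each gene's own mean. The mean of the 4 MCM genes was 0.24, 0.17 and 0.05 over the control arrays in replicate order and -0.21, -0.10 and -0.14 over the cisplatin arrays. Cisplatin 1, on which the MCM mean was lowest, also had the highest ratio of 3′ to 5′ signal for ACTB, which grows as RNA is degraded, at 3.67. Control 1, on which the MCM mean was highest, had the lowest ratio, at 2.20, and the other 4 arrays had ratios from 2.67 to 2.98. MCM2 and MCM5 were also highest on control 1 and lowest on cisplatin 1. MCM3 and MCM6 did not share this order: both were highest on control 2, MCM3 was lowest on cisplatin 2 and MCM6 on cisplatin 3. With that ratio as a covariate the median log2 fold of the MCM genes was -0.28 and that of MCM2 alone -0.10. MCM3, MCM5 and MCM6 then had -0.34, -0.28 and -0.27. A part of RNA integrity in the values was not tested further.

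**Figure D3:**
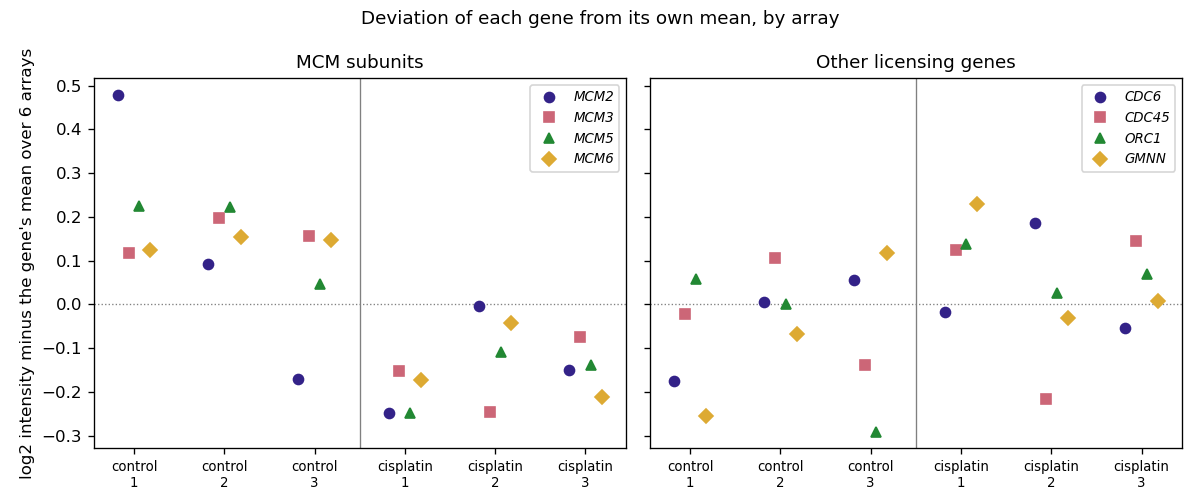
log2 intensity of each gene minus its own mean over the 6 arrays, by array, with the MCM subunits on the left and the other licensing genes on the right. MCM3, MCM5 and MCM6 are above 0 on all control arrays and below 0 on all cisplatin arrays, MCM2 is spread widely over the controls, and the genes on the right show no common order of the arrays.

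The genes whose profile lay closest to the mean of the 4 MCM genes were found by the root mean square difference of centred log2 values over the 6 arrays. Of 5808 other genes, the 5 closest were SND1 (a difference of 0.037), GINS2 (0.038), NBAS (0.040), RRP1 (0.040) and INPP5A (0.043), where the median gene had 0.26. GINS2 encodes a subunit of the GINS complex, the partner of the MCM ring and CDC45 in the active helicase. It was at 797, 772 and 729 in control and at 572, 633 and 647 after cisplatin, with no overlap of the groups. Every cisplatin array lay below every control array for 3.57% of tested probe sets. The log2 fold of GINS2 was -0.31 (SE 0.10, adjusted p = 0.627 in limma), so it did not pass the threshold. A fold near that of the MCM genes and groups without overlap follow from the ranking itself. SND1, NBAS, RRP1 and INPP5A, at like distances, had log2 folds of -0.31, -0.28, -0.26 and -0.29. Within the 4 MCM genes, whose own values make up that mean, the difference ran from 0.029 for MCM5 to 0.14 for MCM2. The mean holds the contrast that chose the genes, so the members' own distances from it are not compared.

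Other genes of replication were described through 7 lists, with the members left out. Their 76 tested genes gave 0 calls in limma, where 0.29% of all probe sets passed, and 5 had an unadjusted p under 0.05, which held for 5.03% of all probe sets. For reading the counts of lower and higher genes below, 39.5% of all tested probe sets had a log2 fold under 0 as deposited and 58.7% after median centring, so such counts depend on the scaling. The origin recognition and loading list had 6 tested genes, of which 2 were lower and 4 higher (median log2 fold 0.02). Its genes of lowest unadjusted p were subunits of the origin recognition complex, ORC6 at a log2 fold of 0.30 (SE 0.13) and ORC4 at 0.18 (SE 0.14). ORC6 was at 302, 411 and 344 in control and at 445, 452 and 406 after cisplatin, an overlap through control 2.

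The list of origin firing and CMG assembly had 7 tested genes, 2 lower and 5 higher, with a median of 0.11. GINS2 was the gene of lowest unadjusted p, followed by DBF4, the activator of the CDC7 kinase that phosphorylates the MCM ring, at -0.23 (SE 0.19). CDC7 itself had a log2 fold of 0.16 (SE 0.32). In the list of licensing turnover, the ubiquitin ligase parts and cyclins that remove or block licensing factors, 4 of 8 tested genes were lower and 4 higher. CCNA2, cyclin A2, had a log2 fold of -0.22 (SE 0.12) and CUL4B, a cullin scaffold, one of -0.17 (SE 0.18).

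Of 7 tested genes of related helicases and fork protection, 3 were lower and 4 higher, and the median was 0.04. CHEK1, the checkpoint kinase that restrains origin firing, had -0.28 (SE 0.16), and CLSPN, its adaptor claspin, -0.23 (SE 0.26). The 24 tested fork elongation genes had a median of 0.05, with 10 lower and 14 higher. PCNA, the sliding clamp, was at 1365, 1610.2 and 1662 in control and at 2131, 1879 and 2084 after cisplatin, with no overlap. The log2 fold of PCNA was 0.39 (SE 0.09, adjusted p = 0.272). LIG1, the ligase that joins Okazaki fragments, had 0.29 (SE 0.12, adjusted p = 0.936), also with no overlap. The lowest folds of the list were those of POLD4 (-0.42, SE 0.23) and TOP2A (-0.29, SE 0.24), both with overlap.

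E2F and pocket protein genes had a median of -0.005 over 11 tested genes, 6 lower and 5 higher. The pocket protein genes RBL2 and RB1 had log2 folds of 0.24 (SE 0.20) and 0.37 (SE 0.31), RB1 at a dim 23.2 and 32.9, and E2F1 had -0.11 (SE 0.14). Other S phase targets of E2F had a median of 0.04 over 13 tested genes, 6 lower and 7 higher. TYMS and RRM2, which make deoxynucleotides, had 0.20 (SE 0.06, adjusted p = 0.535) and 0.15 (SE 0.07, adjusted p = 0.977), and both had every cisplatin array above every control array, as had RRM1 and CHAF1B. NASP, a histone chaperone gene, had every cisplatin array below every control array, with a log2 fold of -0.27 (SE 0.17). Over all tested probe sets 7.42% lay above and 3.57% below in this way.

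**Figure D4:**
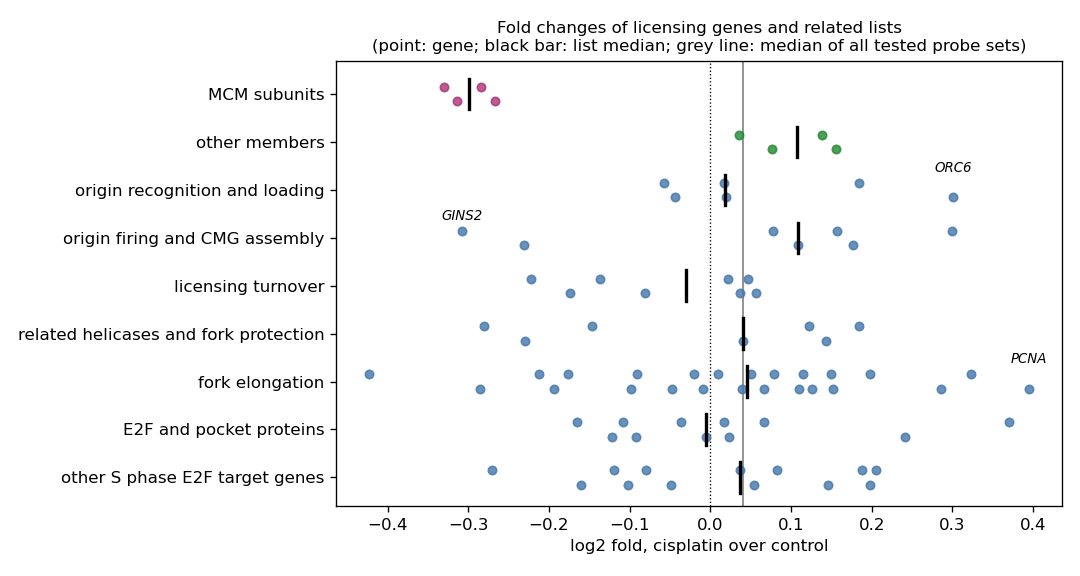
log2 fold of cisplatin over control for the MCM subunits, the other members and the tested genes of 7 replication lists, 1 point per gene, with a black bar at each median and a grey line at the median of all tested probe sets (0.04). The medians of the 7 lists run from -0.03 to 0.11, and the MCM subunits lie from -0.33 to -0.27. Single genes of the lists lie there too: GINS2 at -0.31, TOP2A at -0.29, CHEK1 at -0.28 and NASP at -0.27. POLD4 lies lower at -0.42, and PCNA is the highest point at 0.39. Of all points 0 passed the threshold.

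Over 17 alternatives the log2 fold of MCM3 ran from -0.39 to -0.27, that of MCM5 from -0.40 to -0.28 and that of MCM6 from -0.36 to -0.25. MCM2 ran from -0.42 to -0.09. CDC6 ran from -0.07 to 0.12, CDC45 from -0.04 to 0.15 and GMNN from 0.02 to 0.23, and ORC1, tested in 16 of the alternatives, from 0.05 to 0.25. Among the alternatives, the filter, trend and replicate block settings leave the fold of a gene unchanged by construction.

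**Figure D5:**
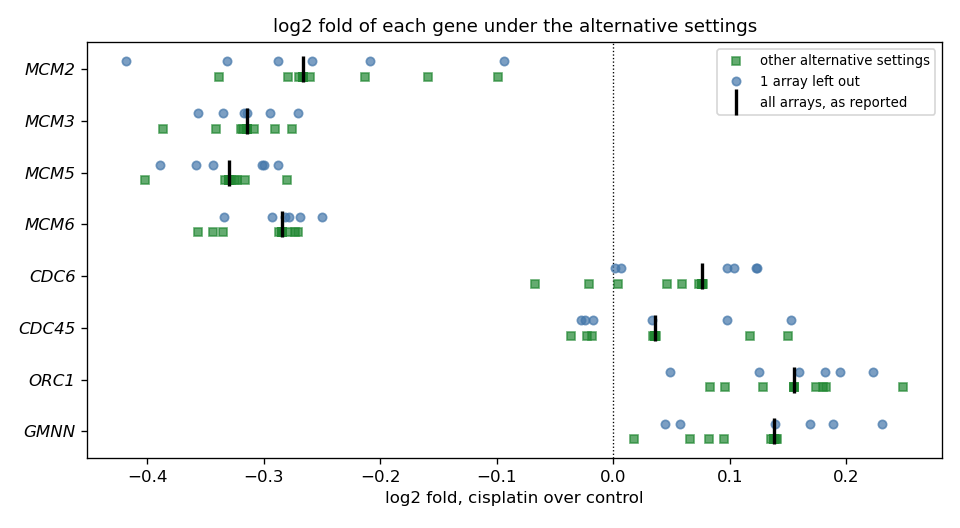
log2 fold of each gene with all arrays (black bar), in the 6 fits without 1 array (blue circles) and under the other alternative settings (green squares). The 4 MCM genes stay below 0 in all of them, with the widest range for MCM2 (-0.42 to -0.09), while CDC6 and CDC45 lie on both sides of 0.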

How the data were processed

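The authors deposited probe set intensities on a linear scale, with 1.37% of values at or below 0; which software made them, and any scaling, is not given in the sources used here. Gene names came from the platform's probe table, with 7840 probe sets naming 1 gene, 388 several and 518 none, and Entrez identifiers of 7838 matched RefSeq. Values below 0 were set to 0, an offset of 11.8 (the 10th percentile of positive values) was added, and log2 was taken. The offset makes folds of dim probe sets smaller. Arrays were used as deposited, since 75th percentiles differed by 0.15 (limit 0.3). The 47 control probe sets were left out and those below the 25th percentile of mean log2 were not tested. The 2 groups were compared in limma 3.58.1 (R 4.3.3; lmFit, eBayes with an intensity trend, two-sided, Benjamini-Hochberg at 0.05), a step tested on simulated data. An exact test of 3 against 3 cannot go below 0.1. Promoters were searched with Python 3.11.15 and figures drawn with matplotlib 3.10.9.

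The members and lists were chosen with earlier results of these data known. By rule, the text named every member, CDKN1A, GAPDH and ACTB (no named probe set tested), the genes of each list past the threshold or else the 2 with the lowest unadjusted p, and the 5 genes most like the MCM mean. CDC7 and E2F1 were added for their role, and POLD4 and TOP2A for their folds, after values were seen. Alternatives covered scaling, offset, filter, trend, replicate block, 3′/5′ covariate, array weights and leaving out arrays.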

Additional observations from a re-analysis of the deposited data

How the results depend on the processing

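Of 135 values of single members under alternative settings, 127 kept their direction, 8 did not, and 0 passed the threshold. The filter, trend and replicate block settings cannot change the fold of a single member, so their values kept direction by construction. The log2 fold of CDC45 was -0.036 after median centring, -0.018 after quantile normalization and -0.023 with the 3′/5′ covariate, and over the 6 fits without 1 array it ran from -0.028 to 0.152, below 0 without control 3, cisplatin 1 or cisplatin 3. CDC6 had -0.067 without control 1 and cisplatin 2 and -0.021 with array weights. The median over the members, -0.12, was -0.19 after median centring, -0.15 after quantile normalization, -0.061 with the 3′/5′ covariate and -0.27 under a filter set at the 50th percentile, which left 7 genes by dropping ORC1; without 1 array it ran from -0.15 to -0.043. The median of the 4 MCM genes ran from -0.37 to -0.28, a range looked at after the data were seen. Of all probe sets 19 were called, against 11 after median centring, 8 with no intensity trend, 47 with the 3′/5′ covariate, 44 with array weights and 6 to 18 without 1 array; fewer arrays apart, the cause was not tested. With the replicate block 5 passed, 0 of them members. The members' folds did not move, as the block cannot change a fold where every replicate number is in both groups. Equal numbers did not deviate together (correlations of -0.56, -0.31 and -0.12, with 0 of 6 arrays most like its own number). The number of arrays limits all members. ORC1, the dimmest of them, had an SE of 0.16, as had the bright MCM2.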

Other observations

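The E2F words of the MCM promoters also stood in promoters of replication genes on both sides of the control. Of 69 tested genes of the 7 lists with a RefSeq promoter at hand, 21 held 1 of the 4 words in at least 1 promoter, beside 3.99% of all genes in the promoter table. Of these 21 genes 11 had a log2 fold under 0 and 10 above, and of the 48 genes without a word 20 were under 0 and 28 above. The lowest of the 21 were GINS2 at -0.31, CLSPN at -0.23 and POLA1 at -0.21, and the highest were PCNA at 0.39, LIG1 at 0.29 and TYMS at 0.20. In limma 0 of these 6 passed the threshold. PCNA, LIG1, TYMS and GINS2 had an unadjusted p under 0.05, which held for 5.03% of all tested probe sets. These 6 were picked as the extremes of fold, which favours a low unadjusted p, so nothing is read from it. The genes were compared after their values were seen, and the link between promoter letters and fold was not tested.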
